A study of Homo sapiens with 6 samples.

Results

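The genes described here are 10 components of the unfolded protein response of the endoplasmic reticulum (ER), measured by RNA sequencing in SK-OV3 cells after knockdown of the long non-coding RNA PVT1. They were ATF6, ERN1, EIF2AK3, XBP1, HERPUD1, SEL1L, SDF2L1, PDIA4, HYOU1 and CRELD2, taken by gene symbol from the raw count table, and made up 10 of its 59653 genes. All 10 were among the 19008 genes with enough counts to be tested. SK-OV3 (SKOV3 in the sample labels) is a human ovarian cancer cell line, and its genotype was labelled wildtype in every sample. Cells were transfected for 48 h with a pool of siRNAs to PVT1 (siPVT1, 3 libraries) or with a non-targeting pool (siControl, 3 libraries), both delivered with Lipofectamine RNAiMAX in full serum medium. A single cell line and a single pool against PVT1 were used, so that effects of lower PVT1 and other effects of this pool cannot be told apart.

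In the unfolded protein response, unfolded protein in the ER lumen activates the membrane sensors ATF6, IRE1 (encoded by ERN1) and PERK (encoded by EIF2AK3). IRE1 removes a short intron from XBP1 mRNA so that an active transcription factor is made, ATF6 is cut in the Golgi to release another, and PERK phosphorylates the initiation factor eIF2, which slows general translation and favours translation of ATF4. These factors raise chaperones, disulfide isomerases and components of ER-associated degradation (ERAD), the route by which misfolded proteins leave the ER for the proteasome. Counts per gene do not tell spliced from unspliced XBP1 mRNA, cut from full-length ATF6, or active from inactive kinases, and so measure RNA abundance only.

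The outputs of this response carry known DNA elements, and these are shown for the genes whose start-site region held one. RefSeq windows from 250 bases before to 50 bases after the transcription start (GRCh38.p14) were found for all 10 genes, with a pair of windows each for XBP1 and PDIA4. The elements below were searched by their letters on both strands, where N is any base. The ER stress response element (ERSE) was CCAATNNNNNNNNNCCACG, ERSE-II was ATTGGNCCACG, the XBP1-type element (UPRE) was TGACGTGG and the CEBP-ATF element (CARE) was TGATGNAA. Stretches that hold matches are written 5′ to 3′ on the strand of the gene, with the matches in capitals:
XBP1: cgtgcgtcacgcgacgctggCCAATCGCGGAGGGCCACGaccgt
CRELD2: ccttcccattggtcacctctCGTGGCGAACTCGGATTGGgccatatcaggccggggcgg
HYOU1: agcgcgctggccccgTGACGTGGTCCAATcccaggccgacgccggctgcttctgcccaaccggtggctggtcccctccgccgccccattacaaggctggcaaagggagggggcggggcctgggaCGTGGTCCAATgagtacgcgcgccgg
HERPUD1: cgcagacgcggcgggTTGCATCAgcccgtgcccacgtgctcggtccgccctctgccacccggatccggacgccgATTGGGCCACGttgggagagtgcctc
SDF2L1: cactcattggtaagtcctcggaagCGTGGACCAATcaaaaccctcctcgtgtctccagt

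The XBP1 stretch (chr22:28800598-28800641, minus strand) holds an ERSE from 52 to 34 bases before the start, and the CRELD2 stretch (chr22:49918534-49918592, plus strand) holds one from 80 to 62 bases before it, in the reverse orientation. The HYOU1 stretch (chr11:119057259-119057408, minus strand) holds ERSE-II in the reverse orientation from 185 to 175 and from 79 to 69 bases before the start, and the distal match overlaps a UPRE from 188 to 181. HERPUD1 (chr16:56931951-56932050, plus strand) has ERSE-II from 117 to 107 and a reverse CARE from 176 to 169 bases before the start. SDF2L1 (chr22:21642090-21642148, plus strand) has a reverse ERSE-II from 188 to 178 bases before the start. By GENCODE v44 none of the printed bases lie in an exon of their gene, and the CRELD2 stretch lies in an intron of a longer transcript. Among all 35116 windows, ERSE was found in 27 (0.0769%), ERSE-II in 19 (0.0541%), UPRE in 256 (0.729%) and CARE in 1270 (3.62%). No match to ERSE or ERSE-II was found in the windows of ATF6, ERN1, EIF2AK3, SEL1L and PDIA4, which says only that these letters are not in these windows. A match is a description of the sequence and was not tested as a binding site.

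The libraries held between 28383171 and 35059576 counts, and values below are normalized counts, that is, estimated counts divided by a library scaling factor (TMM) that averages 1. Values of a group are listed in the order of replicates 1, 2 and 3. The comparison of siPVT1 with siControl used edgeR's quasi-likelihood test on all 19008 genes, with Benjamini-Hochberg adjusted p-values, and log2 fold changes are siPVT1 over siControl. The thresholds of the study, an adjusted p under 0.05 and a log2 fold change of at least 1 in size, are called both thresholds, and a gene is said to rise or fall where the adjusted p alone passed. Of all genes tested, 21.4% passed both thresholds (4076 genes, of which 54.0% were higher) and 58.4% passed the adjusted p alone. With DESeq2, 3777 genes passed both thresholds. The study reported far fewer differentially expressed genes at these thresholds, and the source of the difference was not tested. With scaling by the total count instead of TMM, the log2 fold change at the median of all genes moved from −0.013 to −0.148, and 43.8% of the genes past both thresholds were higher. The samples are labelled as replicates without a statement that they came from separate cultures, so p-values measure the spread between these samples, and a two-sided exact permutation test of 3 libraries against 3 cannot go below p = 0.1. Among 12033 genes with a mean of at least 100 normalized counts, the median coefficient of variation (CV) was 3.88% and 8.82% in siControl and siPVT1.

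PVT1, the targeted RNA, had 3271, 4166 and 3364 normalized counts in siControl and 2328, 2106 and 2041 in siPVT1. All siPVT1 libraries were below all siControl libraries. Means were 3601 ± 492 and 2158 ± 150.5 (SD, n = 3 each), and the log2 fold change was −0.74 (standard error, SE, 0.102, edgeR adjusted p = 0.000465). Summed normalized counts of the 5 epithelial genes ranged from 17637 to 19400 in siControl and from 23064 to 24988 in siPVT1. KRT8 and KRT18 made up most of this sum, while KRT19 ranged from 247 to 276 in siControl and from 806 to 1696 in siPVT1, ERBB2 from 1212 to 1314 and from 888 to 952, and EPCAM from 64.2 to 129.6 and from 40.9 to 106.8. The sum of the 3 leukocyte genes ranged from 559.7 to 602 and from 575 to 883, nearly all from CD68, with CD3E at 0 in all 6 libraries and PTPRC at most 2.06. Summed normalized counts of the 3 endothelial genes ranged from 2030 to 2110 in siControl and from 8518 to 10782 in siPVT1, nearly all from CDH5, and those of the 3 fibroblast genes from 196 to 204 and from 787 to 820, with DCN at most 1.10. The part of these differences in the results below was not tested. All 6 libraries were labelled as SK-OV3 cells, so these sums are RNA levels of marker genes in a single cell line, not shares of cell types. Bulk RNA does not tell a change in every cell from a change in some of the cells.

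The 10 genes did not move in one direction after siPVT1. PDIA4, SEL1L, HYOU1 and EIF2AK3 rose, XBP1 and HERPUD1 fell, and ATF6, ERN1, SDF2L1 and CRELD2 did not pass the test. PDIA4, a disulfide isomerase of the ER, passed both thresholds, as 1 gene higher (11.6% of all genes tested) and 0 lower (9.86%). With the adjusted p alone, 4 of 10 were higher (29.2% of all genes) and 2 of 10 lower (29.2%), so 6 of 10 changed against 58.4% of all genes, a share near the background. With scaling by the total count 3 were higher and 3 lower. The median log2 fold change of the 10 genes was 0.21, and that of all genes tested was −0.013. The groups did not overlap in 8 of 10 genes (66.3% of all genes), 5 of them higher (32.8%) and 3 lower (33.5%). The opposite signs within the response, with the transcription factor XBP1 lower and the folding genes PDIA4 and HYOU1 higher, are seen in the plot of log2 fold changes.

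**Figure D1:**
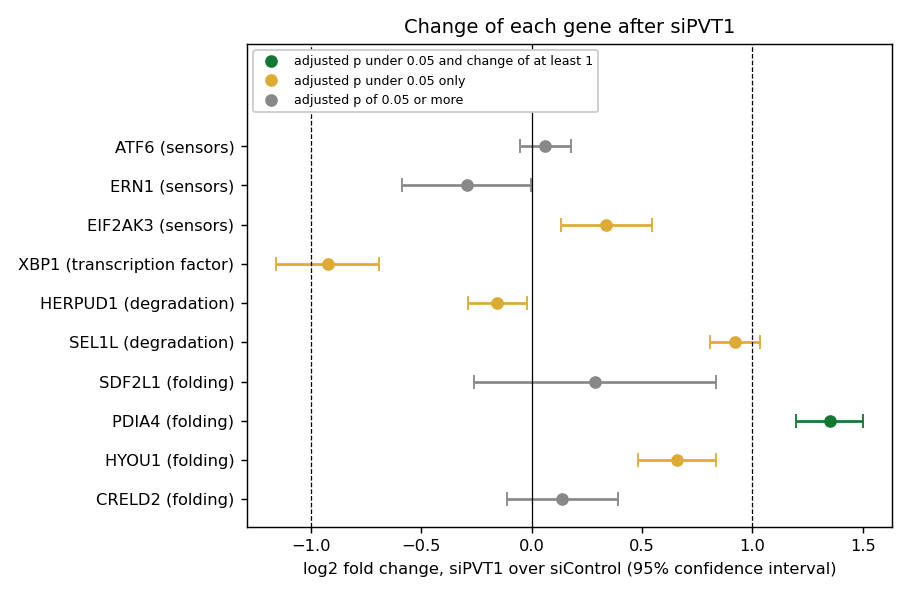
Log2 fold change of each of the 10 genes (siPVT1 over siControl, points) with its 95% confidence interval (bars), where colours give the thresholds passed and dashed lines mark a log2 fold change of 1 in either direction. PDIA4 lies above 1, SEL1L (0.92) and XBP1 (−0.92) lie just inside the lines, and the intervals of ATF6, SDF2L1 and CRELD2 include 0.

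Of the 3 sensors, EIF2AK3 rose, and ATF6 and ERN1 did not pass the test. ATF6 encodes the membrane-bound transcription factor (ENSG00000118217, GRCh38 chromosome 1, 161766298 to 161977574, plus strand). Normalized counts of ATF6 were 3352, 3388 and 3249 in siControl and 3519, 3408 and 3496 in siPVT1. The siPVT1 libraries were all slightly above the siControl libraries, though the means, 3330 ± 72.0 and 3475 ± 58.8 (SD, n = 3 each), were close. The log2 fold change was 0.06 (95% confidence interval −0.05 to 0.18, edgeR adjusted p = 0.328), and its sign turned with scaling by the total count, to −0.07. ATF6 had the smallest spread of the 10 genes in siPVT1, with a coefficient of variation of 1.69%.

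ERN1 encodes IRE1, the kinase and endoribonuclease that splices XBP1 mRNA (ENSG00000178607, chromosome 17, 64039080 to 64130819, minus strand). Its normalized counts were 1784, 1775 and 1748 in siControl and 1695, 1487 and 1148 in siPVT1. All siPVT1 libraries were below all siControl libraries, but they lay far apart from each other, and the CV was 1.08% against 19.1%. The mean was 1769 ± 19.1 in siControl and 1443 ± 276 in siPVT1 (SD, n = 3 each), and the log2 fold change was −0.29 (SE 0.127, edgeR adjusted p = 0.0785). Without siPVT1 replicate 1, the closest to siControl, the log2 fold change was −0.42 and the adjusted p was 0.0095 (edgeR). Without siPVT1 replicate 3, the lowest, it was −0.15 (edgeR adjusted p = 0.0639), and with scaling by the total count it was −0.43 (edgeR adjusted p = 0.0192).

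EIF2AK3 encodes PERK, the kinase that phosphorylates eIF2 (ENSG00000172071, chromosome 2, 88556741 to 88691518, minus strand). Normalized counts of EIF2AK3 were 653, 638 and 609 in siControl and 720, 797 and 883 in siPVT1. Every siPVT1 library was above every siControl library, with the widest gap in siPVT1 replicate 3. The mean rose from 633 ± 22.1 to 800 ± 81.5 (SD, n = 3 each), and the log2 fold change was 0.34 (SE 0.089, edgeR adjusted p = 0.0117). The call was lost without siControl replicate 3 (log2 fold change 0.30, edgeR adjusted p = 0.0590) and with scaling by the total count (0.20, edgeR adjusted p = 0.0828).

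XBP1, the transcription factor made from the mRNA that IRE1 splices, fell by about the same factor as SEL1L rose (ENSG00000100219, chromosome 22, 28794555 to 28800597, minus strand). Normalized counts of XBP1 were 3272, 3277 and 3209 in siControl and 1483, 1673 and 1985 in siPVT1. The siControl libraries were nearly equal, and even the highest siPVT1 library, replicate 3, lay well below them. The mean was 3253 ± 38.0 in siControl and 1714 ± 254 in siPVT1 (SD, n = 3 each), 1.90-fold higher in siControl, with a log2 fold change of −0.92 (SE 0.10, edgeR adjusted p = 0.000127). XBP1, whose window holds an ERSE, had the lowest log2 fold change of the 10 genes. It did not reach the fold threshold, but passed it without siPVT1 replicate 3 (−1.04) and with scaling by the total count (−1.06). The pseudogene XBP1P1, with which reads could be shared, had a mean of 1.67 counts.

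The degradation genes moved in opposite directions. SEL1L, the adaptor of the ubiquitin ligase HRD1 in ERAD, rose (ENSG00000071537, chromosome 14, 81471547 to 81533853, minus strand). Normalized counts of SEL1L were 4370, 4282 and 4325 in siControl and 7993, 8379 and 8197 in siPVT1. Both groups were tight and far apart, with means of 4326 ± 43.7 and 8190 ± 193 (SD, n = 3 each). The change was 1.89-fold, and the log2 fold change was 0.92 (SE 0.049, edgeR adjusted p = 4.25e-06), just under the fold threshold.

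HERPUD1 is a ubiquitin-like membrane protein that joins the same ligase complex (ENSG00000051108, chromosome 16, 56932142 to 56944864, plus strand). Its normalized counts were 2012, 2048 and 1999 in siControl and 1730, 1811 and 1896 in siPVT1. The groups did not overlap, but siPVT1 replicate 3 came close to siControl. The mean fell from 2019 ± 25.2 to 1812 ± 83.0 (SD, n = 3 each), and the log2 fold change was −0.16 (SE 0.058, edgeR adjusted p = 0.0474). This call was at the threshold and held in 4 of 12 alternative fits. It was lost in DESeq2 (adjusted p = 0.0573) and in edgeR without siControl replicate 1 (adjusted p = 0.104), 2 (0.0964) or 3 (0.0952) and without siPVT1 replicate 1 (0.110) or 2 (0.134).

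Among the folding genes, PDIA4 had the largest log2 fold change of the 10 genes (ENSG00000155660, chromosome 7, 149003062 to 149028662, minus strand). Normalized counts of PDIA4 were 859.6, 946.6 and 916.6 in siControl and 2205, 2339 and 2395 in siPVT1. The lowest siPVT1 library held more than the highest siControl library by a wide margin. The mean rose from 908 ± 44.2 to 2313 ± 97.5 (SD, n = 3 each), 2.55-fold, and the log2 fold change was 1.35 (SE 0.066, edgeR adjusted p = 3.02e-06). In 12 of 12 alternative fits the log2 fold change of PDIA4 stayed between 1.21 and 1.39. It is a gene whose window held no match to ERSE or ERSE-II.

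HYOU1, a large HSP70-like chaperone and nucleotide exchange factor of the ER, also rose (ENSG00000149428, chromosome 11, 119044188 to 119057227, minus strand). Normalized counts of HYOU1 were 7054, 7108 and 7146 in siControl and 10171, 10975 and 12462 in siPVT1. The siControl libraries were the tightest among the 10 genes, with a coefficient of variation of 0.648%, and the siPVT1 libraries were spread but all higher. The mean was 7103 ± 46.0 in siControl and 11203 ± 1162 in siPVT1 (SD, n = 3 each), 1.58-fold higher, with a log2 fold change of 0.66 (SE 0.077, edgeR adjusted p = 0.000185). This is the gene whose window shows ERSE-II at both the distal and the proximal position.

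SDF2L1, a luminal protein of the ER that binds J-domain co-chaperones, did not pass the test (ENSG00000128228, chromosome 22, 21642302 to 21644299, plus strand). Its normalized counts were 195.5, 131.7 and 150.9 in siControl and 152.3, 164.6 and 265.0 in siPVT1. The groups overlapped, since only siPVT1 replicate 3 lay above all siControl libraries. The mean was 159 ± 32.7 in siControl and 194 ± 61.9 in siPVT1 (SD, n = 3 each), with a log2 fold change of 0.29 (95% confidence interval −0.26 to 0.84, edgeR adjusted p = 0.330). Without siPVT1 replicate 3 it was −0.0039. SDF2L1 had the lowest counts and the largest coefficients of variation of the 10 genes, 20.5% in siControl and 31.9% in siPVT1, so that a change of the size seen in HYOU1 lies within its interval.

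CRELD2, an ER-resident protein with disulfide isomerase activity, did not pass the test either (ENSG00000184164, chromosome 22, 49918167 to 49927540, plus strand). Its normalized counts were 513.9, 447.6 and 549.4 in siControl and 498.7, 551.5 and 613.7 in siPVT1. The ranges overlapped, with means of 504 ± 51.7 and 555 ± 57.6 (SD, n = 3 each). The log2 fold change was 0.14 (95% confidence interval −0.11 to 0.39, edgeR adjusted p = 0.307). CRELD2 shares exonic bases with ALG12 on the opposite strand, which had a mean of 327 counts, and the strand setting of the counting is not given in the sources used here, so reads of the overlap cannot be assigned with certainty. ERN1, EIF2AK3 and HYOU1 likewise overlap antisense lncRNAs at exons.

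**Figure D2:**
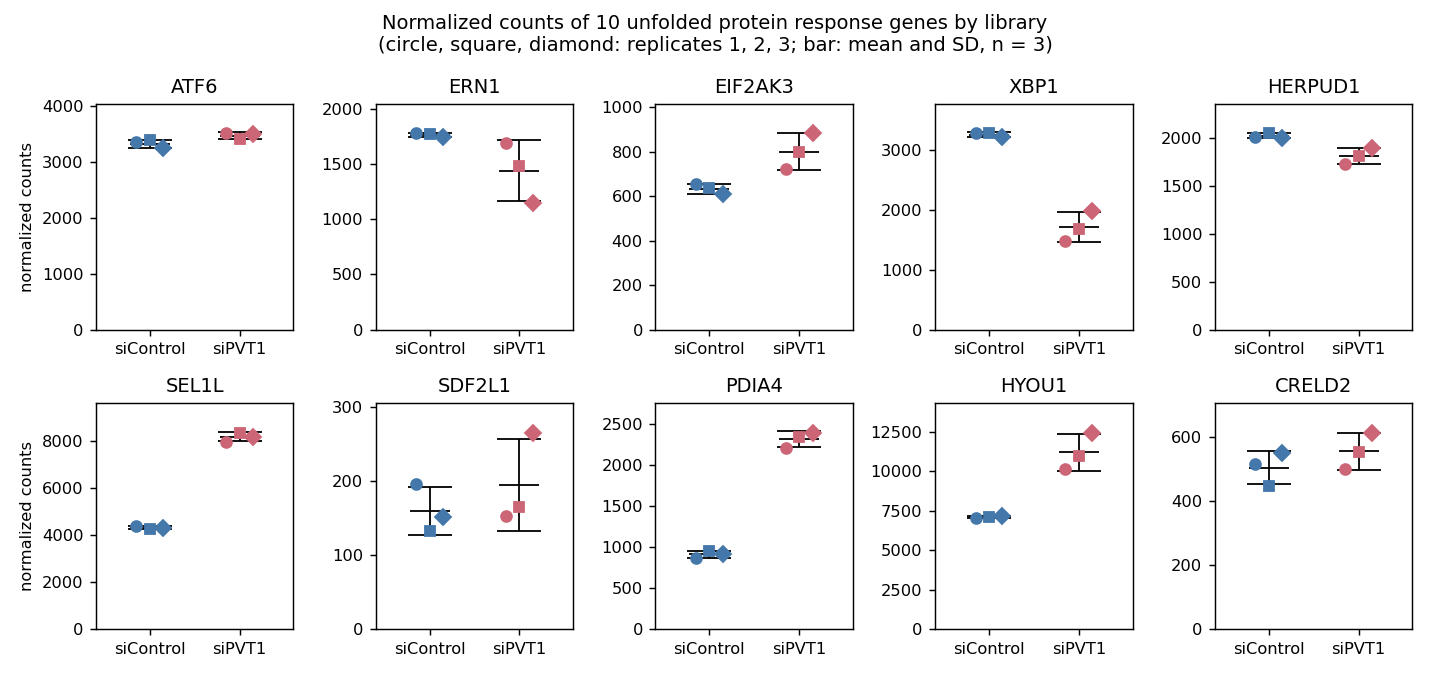
Normalized counts of each of the 10 genes (vertical axes from 0, each with its own scale) in the 3 siControl and 3 siPVT1 libraries, where circles, squares and diamonds are replicates 1, 2 and 3 and bars are the mean and SD (n = 3). SEL1L, PDIA4 and HYOU1 are higher in all siPVT1 libraries and XBP1 is lower in all of them, while SDF2L1 and CRELD2 overlap between groups.

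The siPVT1 libraries differed from each other in a similar order across these genes. Within siPVT1, replicate 3 held the highest value in 7 of 10 genes (70%, against 40.4% of all genes tested) and replicate 1 the lowest in 8 of 10 (80%, against 38.7%). Relative to the siControl mean, the log2 CPM of XBP1 differed by −1.13, −0.96 and −0.71 in siPVT1, and that of ERN1 by −0.06, −0.25 and −0.62. Thus the library in which XBP1 was lowest, replicate 1, was the one in which ERN1 was nearest to siControl. The order of ERN1 is also common, since replicate 1 was the highest siPVT1 library in 7221 of all 19008 genes tested. Replicate 3 was the lowest in 7714 of them. A link between ERN1 and XBP1 was not tested. HYOU1 differed by 0.52, 0.63 and 0.81, and EIF2AK3 by 0.19, 0.33 and 0.48, again with replicate 3 the highest. SEL1L (0.89, 0.95 and 0.92) and PDIA4 (1.28, 1.36 and 1.40) varied little between the siPVT1 libraries. The wider lists described next differed in this order. Replicate 3 was the highest siPVT1 library in 17 of 18 genes of ER translocation, 12 of 16 ER chaperones, 8 of 13 genes of disulfide formation, 12 of 20 of ERAD, 10 of 17 of COPII export, 7 of 15 sensor relatives and 3 of 13 outputs of PERK and ATF4. Replicate 1 was the lowest in 15, 15, 6, 12, 10, 5 and 2 genes of these lists, in the same order. This pattern was noticed after the values were seen, and its source was not tested.

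**Figure D3:**
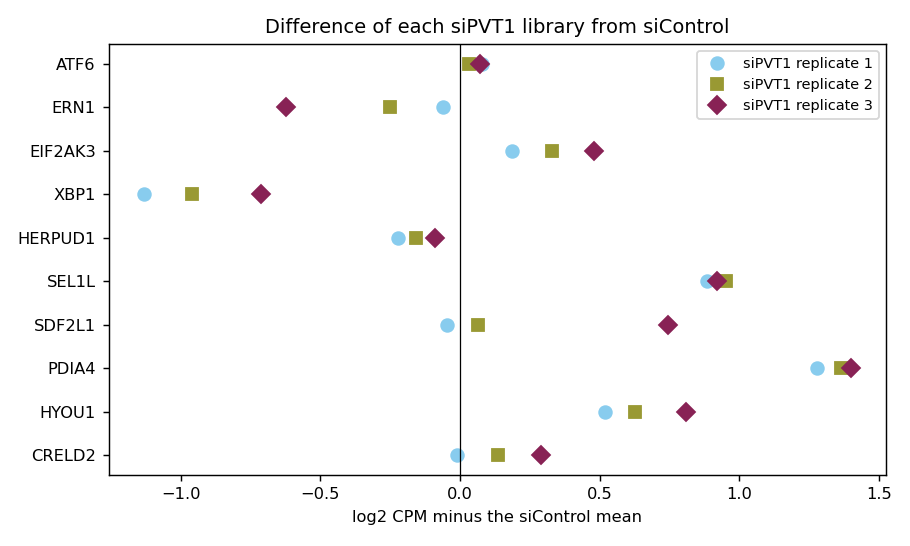
Difference of each siPVT1 library from the siControl mean (log2 CPM, horizontal axis) for the 10 genes, with circles, squares and diamonds for siPVT1 replicates 1, 2 and 3. The libraries nearly coincide in SEL1L, PDIA4 and ATF6 and lie apart in ERN1 (−0.06 to −0.62), XBP1 (−1.13 to −0.71) and SDF2L1, where replicate 3 is at 0.75.

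Levels of different genes were compared per length, as normalized counts per kilobase of the canonical GENCODE v44 transcript. Which transcripts these cells use was not determined, so the order of genes depends on these lengths. The SD covers only the spread between libraries. In siControl, XBP1 was the most abundant of the 10 genes at 1816 ± 21.2 per kilobase, followed by HYOU1 at 1545 ± 10.01 and HERPUD1 at 708 ± 8.83 (SD, n = 3 each). SEL1L (546 ± 5.52), ATF6 (446 ± 9.64), CRELD2 (353 ± 36.2) and PDIA4 (328 ± 16.0) came next, and ERN1 (224 ± 2.42), SDF2L1 (193 ± 39.7) and EIF2AK3 (140 ± 4.88) were the lowest per kilobase. The libraries of CRELD2 and PDIA4 overlapped, as did those of ERN1 and SDF2L1, and the other neighbours in this order did not overlap.

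After siPVT1 the order of levels per kilobase was different at the top. HYOU1 was first at 2436 ± 253 per kilobase, and SEL1L, XBP1 and PDIA4 followed at 1034 ± 24.4, 957 ± 142 and 836 ± 35.2 (SD, n = 3 each). XBP1 overlapped with SEL1L above it and with PDIA4 below it, so their order was not resolved. HERPUD1 (635 ± 29.1), ATF6 (465 ± 7.87) and CRELD2 (388 ± 40.3) were separated from each other. SDF2L1 (235 ± 75.0) overlapped with ERN1 (183 ± 34.9), and ERN1 with EIF2AK3 (176 ± 18.0). The sensors IRE1 and PERK were thus among the 3 lowest per kilobase in both groups.

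**Figure D4:**
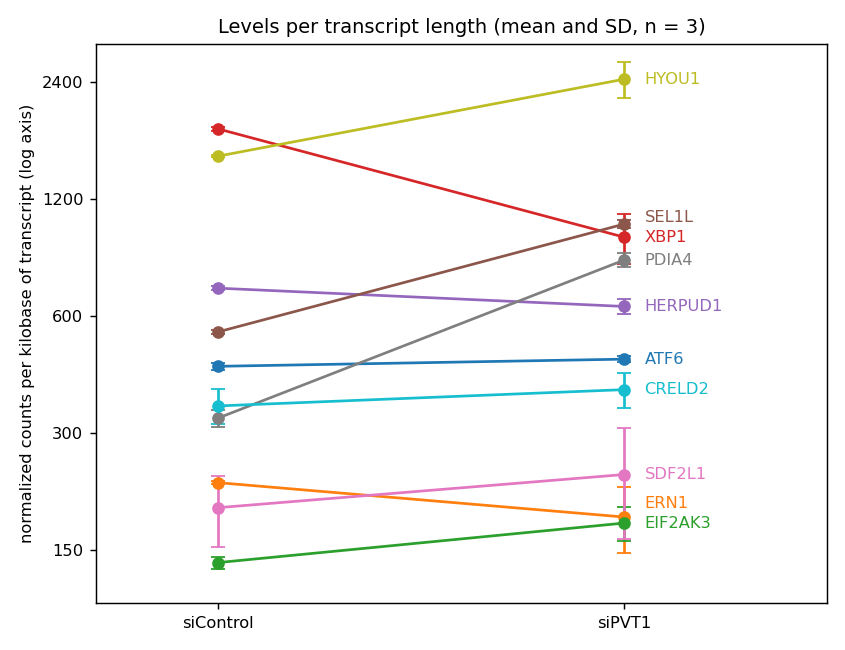
Normalized counts per kilobase of canonical transcript (log axis) of the 10 genes in siControl and siPVT1, with points for means and bars for SD (n = 3), joined by lines for each gene. XBP1 goes from the first place (1816) to the third (957), HYOU1 becomes the highest (2436), and PDIA4 rises from 328 to 836.

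Other genes of the same pathway were taken from lists that hold 115 genes, of which 112 were tested. With the adjusted p alone 49 of 112 were higher and 22 lower (29.2% of all genes tested in each direction), and their median log2 fold change was 0.15. Past both thresholds 4 of 112 were higher (11.6% of all genes) and 8 lower (9.86%). The same shares of all genes are the background of the counts of each list below. The relatives and partners of the sensors went both ways, with 15 of 17 tested, 4 higher and 3 lower by adjusted p, 0 past both thresholds and a median of −0.05 within a range of −0.54 to 0.99. ATF6B, the paralog of ATF6, rose from 1451 ± 70.1 to 1903 ± 194 (normalized counts, SD, n = 3 each), and the log2 fold change was 0.39 (SE 0.086, edgeR adjusted p = 0.00496). ERN2, the paralog of ERN1, was at 0 counts in all 6 libraries. Taken singly, a library at 0 still allows an expected count of up to about 3. EIF2AK2, an eIF2 kinase that responds to double-stranded RNA, had a log2 fold change of −0.08 (SE 0.057, edgeR adjusted p = 0.256). MBTPS1, the protease that makes the first cut in ATF6, was named after its values were seen. It rose with a log2 fold change of 0.99 (edgeR adjusted p = 3.54e-06), while MBTPS2, which makes the other cut, fell with −0.21 (edgeR adjusted p = 0.00971).

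ER chaperones and co-chaperones rose in 9 of 16 genes and fell in 0, with a median log2 fold change of 0.19. HSP90B1, the HSP90 of the ER, was past both thresholds and rose from 22949 ± 532 to 48698 ± 1847 (normalized counts, SD, n = 3 each), and the log2 fold change was 1.09 (SE 0.052, edgeR adjusted p = 2.92e-06). HSPA5 (BiP), the HSP70 that HYOU1 serves and that binds the sensors, had 36851, 35405 and 36548 normalized counts in siControl and 34783, 39073 and 46711 in siPVT1. Its groups overlapped, with a log2 fold change of 0.15 (SE 0.10, edgeR adjusted p = 0.238). DNAJB9, a J-domain co-chaperone, rose with 0.43 (SE 0.077, edgeR adjusted p = 0.00191), and MANF, a secreted cofactor of BiP, with 0.61 (SE 0.139, edgeR adjusted p = 0.00587).

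Disulfide formation, the function of PDIA4, was the list with the highest median, 0.65, with 10 of 13 genes higher and 1 lower by adjusted p (TMX1, −0.40, named after its value was seen). The oxidases ERO1A and ERO1B, which reoxidize the isomerases, were past both thresholds with log2 fold changes of 1.06 (SE 0.083, edgeR adjusted p = 2.48e-05) and 1.10 (SE 0.079, edgeR adjusted p = 1.67e-05). Past both thresholds the count of the list was 2 genes, 1 without siPVT1 replicate 1 and 0 with scaling by the total count. The total-count scaling also left 0 genes higher past both thresholds in the chaperone list and in ERAD.

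In ERAD, the route of SEL1L and HERPUD1, 9 of 20 tested genes were higher and 1 lower by adjusted p (UBE2G2, −0.58, named after its value was seen), with a median of 0.17. EDEM1, which draws mannose-trimmed glycoproteins into ERAD, rose from 4776 ± 146 to 10440 ± 407 (normalized counts, SD, n = 3 each), and the log2 fold change was 1.13 (SE 0.055, edgeR adjusted p = 3.06e-06). SYVN1, which encodes the ligase HRD1 that SEL1L holds, had a log2 fold change of 0.03 (SE 0.090, edgeR adjusted p = 0.818).

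The outputs of PERK and ATF4 were mostly lower in siPVT1, and EIF2AK3 itself was higher. By adjusted p 10 of 13 genes were lower and 1 was higher (PPP1R15B, 0.39, named after its value was seen), 7 were lower past both thresholds, and the median log2 fold change was −1.25. ATF4 fell, with means of 15318 ± 662 and 11085 ± 821 (SD, n = 3 each) in siControl and siPVT1, and the log2 fold change was −0.47 (SE 0.068, edgeR adjusted p = 0.000612). DDIT3 (CHOP), a transcription factor of prolonged stress, had 943, 863 and 942 normalized counts in siControl and 469, 484 and 389 in siPVT1, and the log2 fold change was −1.04 (SE 0.098, edgeR adjusted p = 6.24e-05). TRIB3, a pseudokinase induced by ATF4 and CHOP, was lowest, at −1.96 (SE 0.058, edgeR adjusted p = 6.28e-07). ASNS (asparagine synthetase), ATF3, PPP1R15A (the stress-induced eIF2 phosphatase subunit) and SESN2 had log2 fold changes of −1.91, −1.79, −1.49 and −1.25. Other kinases than PERK also phosphorylate eIF2, so these genes do not measure the output of PERK alone. Of these kinases, EIF2AK1 had a log2 fold change of 0.14 (edgeR adjusted p = 0.0706) and EIF2AK4 of 0.07 (edgeR adjusted p = 0.328). Both were named after their values were seen, and the part of each kinase was not tested.

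The lists of ER entry and exit were mixed. Of 18 genes of ER translocation 7 were higher and 4 lower by adjusted p (median 0.10), and of 17 genes of COPII export and retrieval 9 were higher and 3 lower (median 0.21). SRPRB, the membrane anchor of the receptor of the signal recognition particle, was the gene of these lists past both thresholds. It had 3538, 3367 and 3852 normalized counts in siControl and 1237, 1472 and 2304 in siPVT1, and the log2 fold change was −1.10 (SE 0.204, edgeR adjusted p = 0.00215). Past both thresholds, 0 translocation genes were lower without siPVT1 replicate 1 and 2 without siPVT1 replicate 3.

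**Figure D5:**
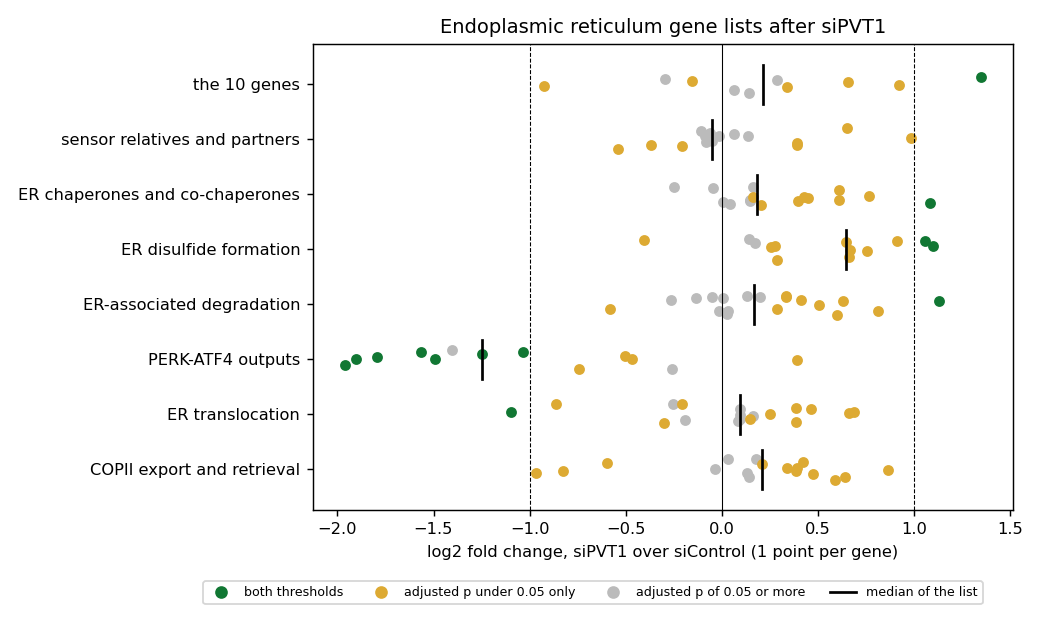
Log2 fold change (siPVT1 over siControl, 1 point per gene) of the 10 genes and of 7 lists of ER genes, where colours give the thresholds passed, black bars are medians and dashed lines mark a log2 fold change of 1 in either direction. The outputs of PERK and ATF4 lie mostly to the left (median −1.25), disulfide formation lies furthest to the right (median 0.65), and the 10 genes spread from −0.92 to 1.35.

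Log2 fold changes of both signs were found among the genes with ERSE or ERSE-II and among those without. ATF6, ERN1, SDF2L1 and CRELD2 did not pass the test, so their signs are uncertain. UPRE and CARE were each found in 1 of the 10 genes, which is too few to compare in this way. The 5 genes with ERSE or ERSE-II had log2 fold changes of −0.92 (XBP1), −0.16 (HERPUD1), 0.14 (CRELD2), 0.29 (SDF2L1) and 0.66 (HYOU1), and those without had −0.29 (ERN1), 0.06 (ATF6), 0.34 (EIF2AK3), 0.92 (SEL1L) and 1.35 (PDIA4). Among all genes tested, 32 had a window with ERSE or ERSE-II, of which 12 were higher and 8 lower by adjusted p (29.2% of all genes in each direction), with a median log2 fold change of 0.13. Of these, 27 were outside the 10 genes, with 11 higher, 6 lower and a median of 0.12. The 6 from the ER lists were HSP90B1 (1.09), ERO1B (1.10), PDIA6 (0.76), CALR (0.40), HSPA5 (0.15) and CANX (0.01), of which 4 rose and 0 fell (29.2% of all genes in each direction). SERP1, which is outside these lists and the 10 genes but has a window with ERSE or ERSE-II, fell with −0.76 (edgeR adjusted p = 3.19e-05). PDIA6, CALR, CANX and SERP1 were named after their values were seen.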

How the data were processed

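RNA of SK-OV3 cells was sequenced in 6 libraries (KAPA mRNA HyperPrep, single-end reads), 3 siControl and 3 siPVT1, grouped by the sample labels. The authors aligned reads to the GENCODE v35 transcriptome of GRCh38.p13 and deposited whole-number estimated counts for each gene symbol, not normalized. The submitters' processing notes name bcl2fastq 2.20.0, STAR 2.7.3a, Salmon 0.14.1 and DESeq2 1.28.1. The strand setting is not given in the sources used here. Salmon divides reads between similar transcripts by estimation. The table held 59653 genes, 25268 of them at 0 in every library.

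Testing was limited to the 19008 genes that reached 5 normalized counts in 3 or more libraries. The quasi-likelihood test of edgeR 4.0.16 (under R 4.3.3) was used after TMM scaling, with siRNA as the only term and Benjamini-Hochberg adjustment over all genes tested. The standard error is the size of the log2 fold change over the square root of F. The scripts were tested on simulated data. Pairs of replicates differed by more than sampling noise (chi-square per degree of freedom 1.72 to 5.74 in siControl, 8.82 to 46.7 in siPVT1), and each library was counted as 1 sample. This spread does not show whether the libraries came from separate cultures. Same-numbered libraries did not deviate together (r = −0.041, 0.037 and 0.0032).

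The 10 genes and the lists were chosen with earlier results of these data known. Named genes are PVT1, the 10 genes, up to 6 genes per list past both thresholds by smallest p, 10 further ER genes fixed by name (HSPA5, HSP90B1, DNAJB9, MANF, ATF4, DDIT3, SYVN1, ATF6B, ERN2 and EIF2AK2), and the gene most correlated with each of the 10. Marker genes were KRT8, KRT18, KRT19, ERBB2 and EPCAM for epithelial cells, PTPRC, CD3E and CD68 for leukocytes, PECAM1, CDH5 and VWF for endothelium, and COL1A1, DCN and PDGFRB for fibroblasts. Alternatives were DESeq2 1.42.0, edgeR with the size factors of DESeq2, total-count scaling, omission of the filter, filterByExpr, the replicate number as a block and each library left out. Gene positions came from GENCODE v44 and start-site windows from RefSeq.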

Additional observations from a re-analysis of the deposited data

How the results depend on the processing

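In 12 alternatives, fold changes were compared by direction and side of the adjusted-p threshold, and counts by whether they stayed within 1.5 times. By these measures 317 of 348 values were alike, and 29 of 29 with DESeq2 size factors and with filterByExpr. Counts that were 0 in both fits are among those called alike, and they raise this share. PVT1, XBP1, SEL1L, PDIA4, HYOU1 and CRELD2 kept their direction and their adjusted-p call in 12 of 12, with log2 fold changes from −0.88 to −0.63, −1.06 to −0.82, 0.78 to 0.94, 1.21 to 1.39, 0.52 to 0.73 and 0.0045 to 0.22. CRELD2 did not pass in any of these fits (edgeR or DESeq2 adjusted p from 0.116 to 0.973), and the others passed in all of them. With scaling by the total count ATF6 turned to −0.075 (edgeR adjusted p = 0.239), 3 of the 10 genes were higher and 3 lower by adjusted p in place of 4 and 2, 1 (XBP1) was lower past both thresholds in place of 0, 1 COPII gene was lower in place of 0, and the higher counts of chaperones, disulfide formation and ERAD were 0 in place of 1, 2 and 1. DESeq2 left 1 of the 10 genes lower by adjusted p in place of 2, since HERPUD1 missed the threshold. With 1 library left out, that count ranged from 1 to 2, the count of the 10 genes lower past both thresholds from 0 to 1 (XBP1 without siPVT1 replicate 3), sensor relatives higher from 0 to 1, disulfide genes higher from 1 to 2, translocation genes lower from 0 to 2 and outputs of PERK and ATF4 lower from 6 to 7. SDF2L1 ranged from −0.0039 (without siPVT1 replicate 3, edgeR adjusted p = 0.986) to 0.45. Without a filter ERN1 passed (edgeR adjusted p = 0.0479) and HERPUD1 did not (0.191). The replicate numbers did not pair the libraries, and with the replicate block ERN1 passed (−0.31, edgeR adjusted p = 0.0491), HERPUD1 did not (−0.16, edgeR adjusted p = 0.0975), and 10462 genes in place of 11099 passed the adjusted p. The causes of these shifts were not tested. SDF2L1 had the lowest counts of the 10 genes, and whether depth sets its spread was not tested.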

Other observations

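For each of the 10 genes the tested gene with the most similar pattern was taken by Pearson's r of log2 CPM over the 6 libraries, as a description. These were LETM1 for XBP1, FLVCR1 for HERPUD1, IL11 for SEL1L, INPP5F for PDIA4, CAMK2G for HYOU1, TSPAN17 for EIF2AK3, GREB1 for ERN1, ZFP91-CNTF for ATF6, LINC01910 for CRELD2 and LINC01096 for SDF2L1, with r from 0.986 (SDF2L1) upward. The 6 libraries fall into 2 groups, so that r mostly reflects the difference between groups. For XBP1, 3016 genes had r above 0.95, against 2980 for SEL1L, 2773 for PDIA4, 187 for ERN1, 38 for ATF6 and 15 for SDF2L1.

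Several other ER genes were named after their values were seen. SEC16A, which marks ER exit sites, fell with a log2 fold change of −0.97 (standard error 0.052, edgeR adjusted p = 4.82e-06), from 7088 ± 28.8 to 3624 ± 149 normalized counts (SD, n = 3 each). SEC61A1, the pore subunit of the translocon, fell with −0.86 (standard error 0.133, edgeR adjusted p = 0.000819), while SEC61G, a small subunit of the same complex, rose with 0.66 (standard error 0.080, edgeR adjusted p = 0.000229). NFYC and NFYB, subunits of the factor NF-Y that binds the CCAAT letters of ERSE, fell with −0.54 (edgeR adjusted p = 0.000275) and −0.37 (edgeR adjusted p = 0.0108), and NFYA had −0.06 (edgeR adjusted p = 0.48).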
